A study of Mus musculus with 14 samples.

Results

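Hematopoietic cells of the bone marrow that had kept most of a histone label through a long chase (GFP4) were compared with cells of the same surface phenotype that had diluted it to the level next to the lowest (GFP1). All cells were LSK cells, which carry Sca1 and Kit but no lineage markers. Hematopoietic stem cells (HSCs) and multipotent progenitors are found in that gate. GFP4 had 4 arrays and GFP1 had 3, which makes 7 of the 14 arrays in the series, and the members described here are all 18194 genes that the arrays measured. Each gene was read by the brightest of the probe sets that name it alone. GFP0 cells, the most diluted ones, were left out of the comparison and are given only as levels.

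Both groups came from double transgenic mice (hCD34 x H2BGFP) on a C57BL/6 background. In these mice a human CD34 promoter drives a tetracycline-regulated transactivator, which switches on a fusion of histone H2B with GFP in stem and multipotent progenitor cells. Mice of 6 to 8 weeks drank doxycycline (1 mg/ml) over the next 12 weeks, and the drug shut the fusion gene off. From then on every division diluted the label, with approximately 1 to 2 divisions between neighbouring levels. GFP4 thus names the cells with the fewest divisions during the chase, and GFP1 cells with more. GFP2 (3 arrays) and GFP3 (2 arrays) lie between them. The labels speak of biological replicates and do not say which animals they came from, so a p-value here weighs a difference against the spread between sorted samples. RNA was amplified before labelling.

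HSCs are known for long stays in G0, outside the division cycle. As they give rise to multipotent progenitors they enter the cycle more often, and surface markers such as Procr give way to Cd48. Entry into S phase is driven by cyclin-dependent kinases 4 and 6, which release E2F factors from the retinoblastoma proteins, and E2F factors switch on genes of DNA replication. Genes of G2 and mitosis are switched on later, through another promoter element known as the CHR.

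Values are log2 expression as deposited, over a table that ran from 2.69 to 15.13 with a median of 7.03, and differences are GFP4 minus GFP1. The arrays carry no detection calls, so a value well below 7.03 may be background. Over all genes, pairs of arrays of the same group correlated with r from 0.928 to 0.981 and pairs of different groups with r from 0.914 to 0.980. The first principal component of the 7 arrays held 35.1% of the variance, with GFP4 replicate 1 at -55.2 and GFP1 replicate 1 at 56.0, at its ends. GFP4 replicate 2 stood at 59.4 on the second component, and none of the other 6 arrays was above 3.77 there. Actb probe sets at the 3 prime end exceeded those at the 5 prime end, a gap that grows as RNA is shortened, by 4.88, 4.63, 3.99 and 5.05 in GFP4 and 2.99, 4.18 and 4.72 in GFP1. The Gapdh gaps were 5.69, 5.29, 5.64 and 6.57 in GFP4 and 5.06, 5.02 and 6.52 in GFP1, smallest in GFP1 replicate 2. GFP1 replicate 1 had the smallest Actb gap of the 7, and its part in the results was not tested beyond the values without it that are given below. Markers of the sorted cells were read where a probe set named them alone. Of 4 such markers (Kit, Ptprc, Cd34 and Cd93) none passed, with 2 differences above 0 and 2 below, from -0.99 to 0.58. Ptprc (CD45, the pan-leukocyte antigen) had a mean of 11.80 ± 0.49 (SD, n = 4) in GFP4 against 11.22 ± 1.17 (SD, n = 3) in GFP1. The mean of 5 lineage markers lay between 6.75 and 7.12 in GFP4 and between 6.85 and 7.17 in GFP1, around the median of the table. Ly6a, which encodes Sca1, was not analysed here.

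In limma 198 of 18194 genes (1.09%) passed at an adjusted p under 0.05, of which 82 were higher in GFP4 (0.451% of genes) and 116 lower (0.638%). Genes of HSCs, imprinted genes and GTPases of the immune response were among those that rose. Genes of replication, mitosis and DNA repair and genes of lymphoid progenitors were among those that fell. The difference was at least 1 in size for 73 of the 82 rises and 100 of the 116 falls, and at least 2 for 24 and 25 of them. The median over all genes was 0.06. At an unadjusted p under 0.05 there were 2550 genes (14%).

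All 198 genes had GFP4 and GFP1 arrays that did not overlap, against 1812 of all genes (9.96%), 997 of them higher (5.48%) and 815 lower (4.48%). The calls were made on these same arrays, so this separation describes the called genes and tests nothing. The count moved with single arrays. It was 34 without GFP1 replicate 1 (19 higher and 15 lower), 102 without GFP1 replicate 2 and 333 without GFP1 replicate 3. Without GFP4 replicate 1 it was 111, without replicate 2 it was 362 and without replicate 4 it was 96. Arrays of the middle levels share the estimate of the spread: the count was 123 without GFP2 replicate 2 and 108 without either GFP3 array. With both GFP1 replicate 1 and GFP4 replicate 1 left out, an alternative chosen after seeing the data, 22 genes passed (11 higher and 11 lower). With the 3 prime to 5 prime gaps of Actb and Gapdh as covariates 28 passed, 14 each way, and with the 7 arrays alone 42 passed (25 higher and 17 lower). The split of 82 higher and 116 lower was 107 and 97 with cyclic loess and 108 and 100 with quantile normalization. In no alternative did any of the 198 genes change its sign. Leaving out arrays could not have reversed a sign, since each gene's GFP4 values all lay on the same side of its GFP1 values. For those fits the kept signs therefore test nothing.

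**Figure D1:**
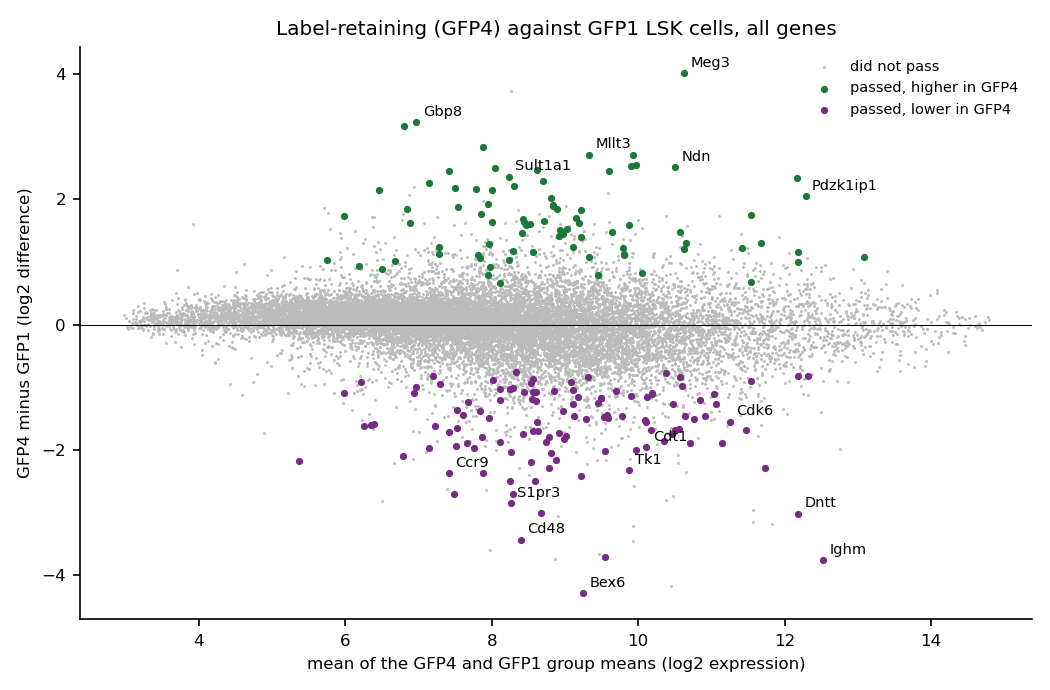
Difference between GFP4 and GFP1 (log2, vertical axis) against the mean of the 2 group means (log2 expression, horizontal axis) for 18194 genes. Green points are the 82 genes higher in GFP4 and purple points the 116 genes lower in GFP4 at an adjusted p under 0.05, and grey points are the rest.

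Passing with every array left out in turn was met by 29 genes, 16 higher and 13 lower. Of these, 12 also passed in every other alternative. The 6 that rose were Meg3, Gbp8, Mllt3, Ndn, Gm10419 and Prxl2a. The 6 that fell were Cdk6, Cdt1, Ccr9, Sh2d5, Chdh and Arpp21. Several of them belong to the groups described next: Meg3 and Ndn are imprinted, Mllt3 is a gene of HSCs, Gbp8 is a GTPase of the immune response, Cdk6 and Cdt1 act at the start of the division cycle and Ccr9 belongs to lymphoid progenitors. Chdh is the choline dehydrogenase of mitochondria, and Arpp21 a phosphoprotein regulated by cyclic AMP.

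Of 24 measured HSC markers 8 were higher in GFP4, none lower and 16 did not pass, with a median difference of 1.02 against 0.06 over all genes. Of all genes 0.451% were higher and 0.638% lower, which are the shares to set beside every list count here and below. This list and those below were chosen with earlier results of these data known, so their counts describe the genes and test nothing. Mllt3 encodes a reader of acylated histones that maintains human HSCs. It had 10.25, 11.08, 10.45 and 10.98 in GFP4, against 7.56, 7.73 and 8.64 in GFP1. The lowest GFP4 array was above the highest GFP1 array, and the difference was 2.71 ± 0.28 (SE, limma adjusted p = 0.00285), or 6.55-fold. All 3 probe sets of Mllt3 passed upwards.

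Procr encodes the endothelial protein C receptor, a surface marker of mouse HSCs. Its values were 11.54, 11.21, 10.86 and 11.37 in GFP4, against 8.96, 7.41 and 9.73 in GFP1 (difference 2.54 ± 0.47, SE, limma adjusted p = 0.0294). GFP4 arrays lay close together and GFP1 arrays far apart. Left-out arrays mattered: the call was lost without GFP1 replicate 1 or 2 or without GFP4 replicate 1 or 4, with differences from 1.89 to 3.06 over all left-out arrays. Clec1a, a C-type lectin receptor, read 9.52, 10.75, 9.61 and 9.52 in GFP4, against 7.10, 7.68 and 7.38 in GFP1 (2.47 ± 0.36, SE, limma adjusted p = 0.0105). GFP4 replicate 2 stood above the other GFP4 arrays here.

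Sult1a1, a sulfotransferase that conjugates phenols, was the HSC marker with the smallest spread in GFP4. Its arrays read 9.37, 9.50, 9.50 and 9.29 in GFP4, against 7.12, 7.15 and 6.89 in GFP1 (2.36 ± 0.28, SE, limma adjusted p = 0.0039). Pdzk1ip1, a small membrane protein, was bright in both groups, with 13.47, 12.99, 13.29 and 13.50 in GFP4 and 10.95, 11.11 and 11.73 in GFP1 (2.05 ± 0.24, SE, limma adjusted p = 0.0039). Tgm2, a transglutaminase, rose by 2.34 ± 0.42 (SE), and Fgd5, an exchange factor for Cdc42 known as an HSC marker of the mouse, by 1.90 ± 0.35 (SE). The last of the 8, Ndn, is described with the imprinted genes.

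Several HSC markers with differences above 0 did not pass. Mecom (a zinc finger factor needed for HSC maintenance) had 10.08, 10.42, 10.74 and 11.26 in GFP4, against 7.79, 8.10 and 9.72 in GFP1. These arrays did not overlap, but the wide GFP1 spread left a difference of 2.09 ± 0.45 (SE) at an adjusted p of 0.0525. Hlf, a leucine zipper factor of HSCs, differed by 1.07 (adjusted p = 0.24), Vwf, the von Willebrand factor that marks platelet-biased HSCs, by 0.97 (adjusted p = 0.381) and Slamf1 (CD150) by 0.60 (adjusted p = 0.23). For Vwf the replicates themselves disagreed, with 9.29, 7.07, 8.62 and 9.19 in GFP4, against 7.61, 7.73 and 7.39 in GFP1. In all, 23 of the 24 markers had a difference above 0. Members higher in GFP4 numbered between 4 and 11 when single arrays were left out, 4 without GFP1 replicate 1, 2 without both arrays numbered 1 and 4 with the covariates, while the median stayed between 0.89 and 1.26 over left-out arrays.

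**Figure D2:**
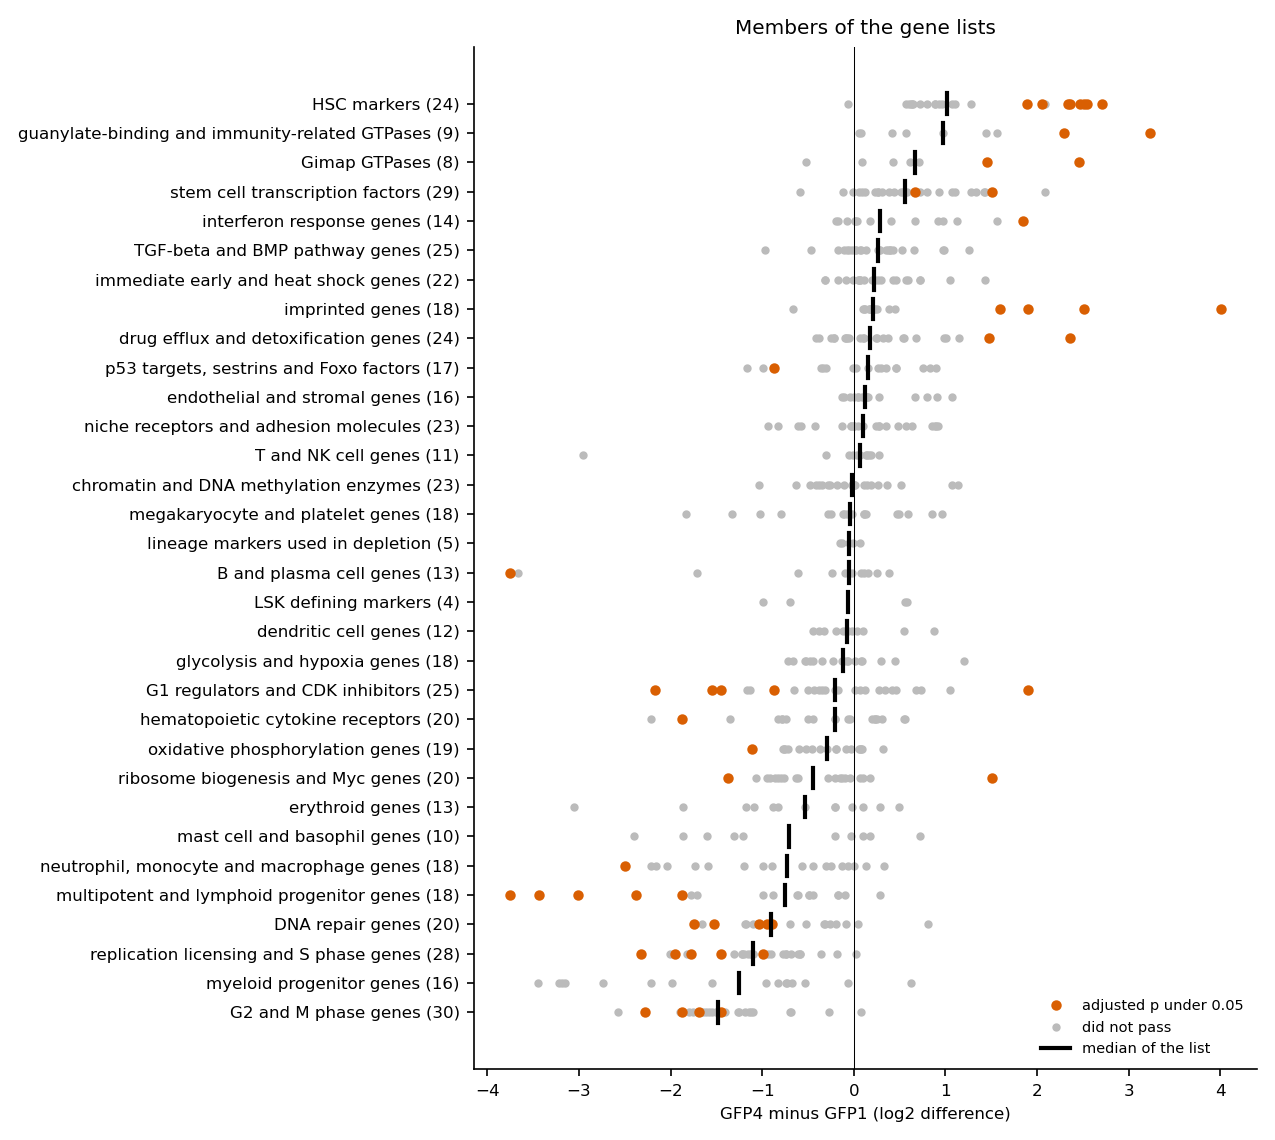
Difference between GFP4 and GFP1 (log2) for the measured members of 32 gene lists, ordered by median, with the number of measured members in brackets. The list of sex-linked genes is not drawn, and none of its 4 measured members passed. Orange points passed at an adjusted p under 0.05, grey points did not, and black bars are list medians. HSC markers lie at the top with a median of 1.02 and G2 and M phase genes at the bottom with -1.49.

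Imprinted genes are expressed from one parental copy, and several restrain growth. Among 18 measured, 4 were higher in GFP4, against 0.451% of all genes, none lower and 14 did not pass. Meg3, a maternally expressed noncoding RNA of the Dlk1-Meg3 cluster, had the largest rise of any gene. Its arrays read 12.60, 12.86, 12.22 and 12.87 in GFP4, against 8.22, 8.06 and 9.59 in GFP1. The gap between the groups was wider than either group, and the difference was 4.01 ± 0.42 (SE, limma adjusted p = 0.00285), or 16.1-fold. The probe set used is an _x_at set, whose probes can bind related transcripts. All 11 probe sets of Meg3 had differences above 0, and 4 passed.

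Ndn, a paternally expressed growth suppressor of the necdin family, had 11.29, 11.73, 12.03 and 11.98 in GFP4, against 8.61, 9.66 and 9.47 in GFP1 (2.51 ± 0.26, SE, limma adjusted p = 0.00285). All 8 of its probe sets had the same sign and 5 passed. Cdkn1c encodes p57, an inhibitor of cyclin-dependent kinases that keeps HSCs in G0. Its values were 9.21, 9.35, 10.40 and 10.20 in GFP4, against 7.73, 7.93 and 8.00 in GFP1. That was a rise of 1.91 ± 0.30 (SE, limma adjusted p = 0.0139), lost without GFP1 replicate 1. Grb10, an adaptor that dampens growth factor receptors, rose by 1.59 ± 0.19 (SE, limma adjusted p = 0.0039). Its other probe sets did not pass, with differences of 0.10 and 0.72.

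The other 14 imprinted genes had differences between -0.67 (Gnas) and 0.45 (Phlda2), and the median of the list was 0.21. Dlk1, the paternally expressed partner of Meg3, had a difference of 0.39 (adjusted p = 0.464), and the noncoding RNAs Rian and Mirg of the same cluster had 0.10 and 0.17. Without GFP1 replicate 1 the members that passed numbered 3, and with the covariates 2.

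GTPases that interferons induce, and that act against pathogens inside cells, formed another group. Of 9 guanylate-binding and immunity-related GTPases 2 were higher (against 0.451% of all genes), none lower and 7 did not pass, with a median of 0.97. The median was 0.64 without GFP1 replicate 2, and between 1 and 4 members were higher when single arrays were left out, 1 without GFP1 replicate 1 and 4 without GFP1 replicate 3. Gbp8 had 8.34, 8.86, 8.54 and 8.61 in GFP4, against 5.48, 4.90 and 5.68 in GFP1 (3.23 ± 0.28, SE, limma adjusted p = 0.0017). GFP1 arrays were all below the median of the table, so the size of the difference rests on dim values. Gbp6 rose by 2.29 ± 0.37 (SE, limma adjusted p = 0.016), a call lost without GFP1 replicate 1 or 2. Of 14 interferon response genes Ifit1, which binds foreign RNA, was higher, by 1.84 ± 0.26 (SE, limma adjusted p = 0.01), and 13 did not pass. Differences were above 0 for 11 of the 14, and 4 had groups that did not overlap, all higher in GFP4. Over all genes 5.48% had groups that did not overlap and were higher in GFP4. Rsad2, an antiviral enzyme, had a difference of 1.13 (adjusted p = 0.143) and Stat2, a factor of interferon signalling, 0.67 (adjusted p = 0.24). Irf7, Oasl2 and Mx1, which interferons induce as well, were the 3 below 0, at -0.19, -0.17 and -0.07, and the median of that list was 0.29.

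Gimap genes encode GTPases of lymphocyte survival that sit together on chromosome 6. Among 8 measured, 2 were higher, against 0.451% of all genes, and 6 did not pass. Gimap8 had 10.88, 10.18, 11.01 and 11.28 in GFP4, against 7.86, 8.12 and 9.16 in GFP1 (2.46 ± 0.33, SE, limma adjusted p = 0.00786). Gimap5 rose by 1.46 ± 0.30 (SE, limma adjusted p = 0.044), a call lost in 9 of 12 fits that left out an array, while Gimap7 had a difference of -0.52 (adjusted p = 0.584). Neighbours in this cluster thus spanned differences from -0.52 to 2.46. Without GFP1 replicate 1, or with the covariates, 1 of the 8 was higher. Among drug efflux and detoxification genes 2 of 24 were higher, Sult1a1 and Gstt1, a glutathione transferase (1.48 ± 0.22, SE, limma adjusted p = 0.0117). Among 29 transcription factors of stem cells 2 were higher, Mycn (1.51 ± 0.30, SE) and Tcf15 (0.66 ± 0.13, SE), which marks quiescent mouse HSCs. Neither passed without GFP1 replicate 1. The other probe sets of Mycn did not pass, with differences of -0.13 and 0.11.

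The 12 largest rises under the rule for named genes were those of Gbp8 (3.23), Pkp2 (3.17), Unc45b (2.84), Mllt3 (2.71), Procr (2.54), Mmrn1 (2.52), Clec1a (2.47), Zfp612 (2.46), Gimap8 (2.46), Sult1a1 (2.36), Gbp6 (2.29) and Fstl1 (2.26). Pkp2 is a desmosome protein, Unc45b a myosin chaperone of muscle, Mmrn1 the multimerin of platelets and endothelium and Fstl1 a secreted glycoprotein. The other probe sets of Pkp2 (differences from 0.24 to 0.36) and of Mmrn1 (0.68) did not pass. Unc45b lost its call without GFP1 replicate 1 or 2, GFP2 replicate 2, or GFP4 replicate 1 or 4. Zfp612 lost its call in 8 of 12 such fits, and neither of its 2 probe sets passed when every probe set was tested by itself.

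**Figure D3:**
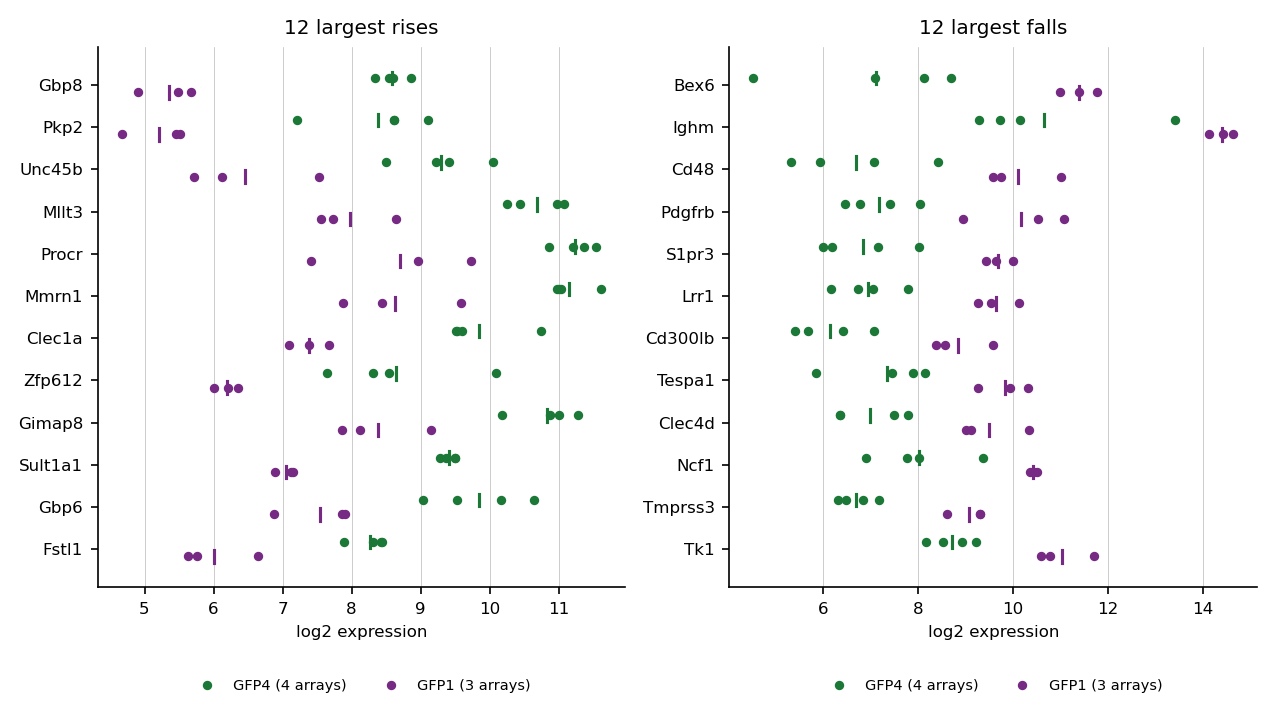
Log2 expression on each array for the 12 largest rises (left) and the 12 largest falls (right), with GFP4 (green, 4 arrays) above GFP1 (purple, 3 arrays) for each gene and short bars at the means. The 2 groups do not overlap for any of the 24 genes, as the rule for choosing them required, and Bex6 and Ighm spread most widely within GFP4.

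Of 28 measured genes of replication licensing and S phase 5 were lower in GFP4, none higher and 23 did not pass, with a median of -1.10. Over all genes 0.638% were lower. Differences were below 0 for 27 of the 28. Cdt1 loads the MCM helicase at replication origins in G1. Its values were 9.47, 8.81, 9.45 and 8.80 in GFP4, against 11.28, 11.09 and 10.90 in GFP1 (-1.96 ± 0.22, SE, limma adjusted p = 0.0039), or 3.88-fold lower. Every GFP4 array was more than 1 log2 unit below every GFP1 array.

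Tk1, the thymidine kinase of the salvage pathway, had 8.54, 8.92, 9.22 and 8.16 in GFP4, against 11.71, 10.78 and 10.60 in GFP1 (-2.32 ± 0.30, SE, limma adjusted p = 0.0062). Tyms, the thymidylate synthase of the other route to thymidylate, fell by 1.00 ± 0.12 (SE, limma adjusted p = 0.0039), and its values of 6.46 ± 0.07 (SD, n = 4) in GFP4, against 7.46 ± 0.06 (SD, n = 3) in GFP1 were dim. Rrm1, a subunit of ribonucleotide reductase, fell by 1.45 ± 0.21 (SE), and Gins1, part of the replicative helicase, by 1.78 ± 0.30 (SE). Rrm2, the partner of Rrm1, had a difference of -1.82 at an adjusted p of 0.0665. None of the helicase subunits Mcm2 to Mcm7 passed, with differences from -1.10 (Mcm5) to -0.36 (Mcm6). Without GFP1 replicate 1 the S phase genes that passed numbered 3, without both arrays numbered 1 they numbered 2, and with the covariates also 2.

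Genes of G2 and mitosis followed with a median of -1.49 over 30 members, 29 of them with a difference below 0. In this list 4 were lower, against 0.638% of all genes, none higher and 26 did not pass. Tpx2, which activates Aurora A at the spindle, had 6.78, 7.79, 8.62 and 7.39 in GFP4, against 10.22, 10.24 and 9.32 in GFP1 (-2.28 ± 0.37, SE, limma adjusted p = 0.0162). The spread within GFP4 was wide, with replicate 1 lowest and replicate 3 highest. Only 2 of the 4 probe sets of Tpx2 had a difference below 0. Aurka, which encodes Aurora A itself, fell by 1.69 ± 0.34 (SE), Nusap1, a spindle protein, by 1.88 ± 0.38 (SE) and Mad2l1, of the spindle checkpoint, by 1.44 ± 0.28 (SE). The other probe set of Aurka did not pass, with a difference of -0.16. Mki67 (Ki-67, a label of cycling cells) did not pass, with 8.40, 11.39, 11.02 and 10.30 in GFP4 and 12.15, 11.51 and 11.69 in GFP1 (adjusted p = 0.225). All GFP4 values were below all GFP1 values, narrowly so in GFP4 replicate 2, and GFP4 replicate 1 was far below the rest.

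The number that passed in this list depended on single arrays. Without GFP1 replicate 1 none of the 30 passed, as with the covariates, and without GFP4 replicate 2 there were 16, while the median ranged from -1.74 to -1.16 over left-out arrays. It was -0.98 without both arrays numbered 1. GFP1 replicate 1 had the highest Aurka value of its group, 10.46 against 9.0 and 8.8 in the other GFP1 arrays. Of 20 DNA repair genes 5 were lower, against 0.638% of all genes, none higher and 15 did not pass, with a median of -0.90. They were Lig1, the ligase that seals Okazaki fragments (-1.53 ± 0.21, SE, limma adjusted p = 0.00889), Rad54l of homologous recombination (-1.74 ± 0.33, SE), the helicase Blm (-1.04 ± 0.22, SE) and the Fanconi anemia genes Fancd2 (-0.95 ± 0.18, SE) and Fanca (-0.89 ± 0.18, SE). Only 2 of the 4 probe sets of Fancd2 and 1 of the 2 of Fanca had a difference below 0. None of the 20 passed without GFP1 replicate 1 or with the covariates, and between 0 and 8 did when single arrays were left out.

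Regulators of G1 split both ways. Of 25 measured, Cdkn1c rose, 4 fell and 20 did not pass. Over all genes 0.451% were higher and 0.638% lower. Cdk6 had 10.73, 10.57, 10.35 and 10.28 in GFP4, against 11.84, 11.89 and 12.37 in GFP1 (-1.55 ± 0.19, SE, limma adjusted p = 0.0039), a gap of over 1 log2 unit between the groups. Cdk4, the kinase that shares its cyclins, had 9.93, 10.22, 10.44 and 10.16 in GFP4, against 11.81, 12.02 and 11.09 in GFP1 (-1.45 ± 0.21, SE, limma adjusted p = 0.0105). Ccne2, a cyclin that partners Cdk2 on the way into S phase, fell by 2.17 ± 0.36 (SE), but at means of 4.28 in GFP4 and 6.46 in GFP1 it was below the median of the table in both.

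The D cyclins that activate both kinases did not pass, at differences of 0.34 (Ccnd1), 0.68 (Ccnd2) and 0.73 (Ccnd3). Among inhibitors, Cdkn1a (p21) fell by 0.88 ± 0.18 (SE, limma adjusted p = 0.0483), against the rise of Cdkn1c, and Cdkn1b (p27) had a difference of 0.42 (adjusted p = 0.473). Cdkn1a passed in 5 of the 28 alternatives, and Cdk6 in all 28. Without GFP1 replicate 1 and with the covariates, 1 member was lower (Cdk6) and none higher.

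Further genes of the cycle among the 116 that fell were picked after their values were seen and have no list count. They include the condensin subunits Ncaph (-1.75) and Ncapg (-1.79), Plk4, the kinase that starts centriole duplication (-2.19), the repressor E2f8 (-1.49) and Pclaf, a partner of the sliding clamp PCNA (-2.01). Pclaf had 8.73, 9.92, 9.01 and 8.22 in GFP4, against 11.57, 10.69 and 10.67 in GFP1. Ncapg read 6.40, 7.46, 7.16 and 6.85 in GFP4, against 9.34, 7.89 and 9.06 in GFP1. The groups were separate for both genes, narrowly for Ncapg.

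Promoters of the genes that fell were set beside those of all genes, since E2F factors and the CHR element are known to govern many genes of replication and mitosis. RefSeq promoter windows (GRCm38.p6, 250 bases before to 50 after the start) were at hand for 90 of the 116 genes that fell, 61 of the 82 that rose and 14453 of all genes tested. The E2F words searched, on both strands, were TTTCCCGC, TTTCGCGC, TTTGCCGC and TTTGGCGC. At least 1 of them was in 9 of 90 promoters of genes that fell (10.0%), in 1 of 61 of genes that rose (1.64%, Mycn) and in 550 of 14453 (3.81%) of all. Among the S phase list it was in 10 of 24 (41.7%). Shares of this list and of the G2 and M list take in members that did not pass. The CHR word TTTGAA, also on both strands, was in 18 of 24 promoters of the G2 and M list (75%), in 19 of 90 of genes that fell (21.1%), in 10 of 61 of genes that rose (16.4%) and in 2264 of 14453 (15.7%) of all. A match says only that these letters are in the window, and the binding of a factor was not measured.

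Promoters of 4 genes that fell are shown because they carry the words of S phase (Cdt1 and Pclaf), of mitosis (Aurka) or of both (Ncapg). Capitals mark an E2F word in Cdt1 and Pclaf, the CHR word in Aurka, and the CHR word followed by an E2F word in Ncapg, with no overlap between words. Each window reads 5′ to 3′ along its gene: Cdt1 at chr8:122567765-122568064 (plus strand), Pclaf at chr9:65890073-65890372 (plus), Ncapg at chr5:45669675-45669974 (plus) and Aurka at chr2:172370521-172370820 (minus).
Cdt1: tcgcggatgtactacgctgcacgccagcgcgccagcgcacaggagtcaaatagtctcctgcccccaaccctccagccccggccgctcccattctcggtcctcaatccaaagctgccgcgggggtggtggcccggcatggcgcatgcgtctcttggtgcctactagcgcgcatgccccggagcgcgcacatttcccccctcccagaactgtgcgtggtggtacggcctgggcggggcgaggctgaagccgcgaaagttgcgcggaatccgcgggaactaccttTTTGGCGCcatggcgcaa
Pclaf: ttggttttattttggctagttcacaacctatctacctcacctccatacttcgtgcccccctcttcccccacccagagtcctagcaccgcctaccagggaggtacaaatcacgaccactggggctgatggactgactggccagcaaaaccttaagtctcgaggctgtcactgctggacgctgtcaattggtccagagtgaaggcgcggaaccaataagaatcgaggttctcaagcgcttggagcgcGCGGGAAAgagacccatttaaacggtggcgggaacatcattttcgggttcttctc
Ncapg: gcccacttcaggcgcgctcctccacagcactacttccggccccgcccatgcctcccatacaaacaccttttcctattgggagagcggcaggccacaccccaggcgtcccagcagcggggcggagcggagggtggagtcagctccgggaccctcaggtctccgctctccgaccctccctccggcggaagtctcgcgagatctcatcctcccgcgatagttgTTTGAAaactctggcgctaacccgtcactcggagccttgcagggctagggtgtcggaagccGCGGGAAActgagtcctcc
Aurka: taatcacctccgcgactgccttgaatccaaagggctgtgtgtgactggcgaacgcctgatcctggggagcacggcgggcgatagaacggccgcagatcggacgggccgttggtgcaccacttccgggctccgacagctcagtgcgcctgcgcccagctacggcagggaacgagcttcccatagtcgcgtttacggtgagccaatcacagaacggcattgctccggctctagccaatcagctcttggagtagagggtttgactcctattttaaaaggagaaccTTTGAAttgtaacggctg

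In Cdt1 the word lies after the annotated start, in Pclaf across it, and in Ncapg the CHR word lies before and the E2F word after it. Aurka has its CHR word after the start and no E2F word in this window.

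Of 18 measured genes of multipotent and lymphoid progenitors, 5 were lower in GFP4, none higher and 13 did not pass, at a median of -0.75. Over all genes 0.638% were lower. In bulk samples fewer cells of a type and less RNA per cell cannot be told apart. Cd48, a surface protein of the SLAM family whose absence marks mouse HSCs, had 5.31, 8.42, 7.07 and 5.93 in GFP4, against 11.01, 9.59 and 9.75 in GFP1 (-3.43 ± 0.61, SE, limma adjusted p = 0.0264). Its GFP4 arrays spread over more than 3 log2 units, with replicate 2 the highest.

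Dntt, the terminal transferase that adds bases at antigen receptor joints, had 9.90, 12.38, 10.22 and 10.21 in GFP4, against 13.68, 13.38 and 14.02 in GFP1 (-3.02 ± 0.48, SE, limma adjusted p = 0.0141). Ighm, the immunoglobulin mu chain, had 9.29, 13.41, 10.16 and 9.73 in GFP4, against 14.64, 14.42 and 14.14 in GFP1 (-3.75 ± 0.79, SE, limma adjusted p = 0.0487). In both genes replicate 2 was the highest of the GFP4 arrays and came within about 1 log2 unit of the lowest GFP1 array. Ighm has 11 probe sets, 9 of the same sign, and immunoglobulin probe sets can bind related segments. With every probe set tested by itself 1 of them passed (difference -4.40), and the set whose values are given here did not (limma adjusted p = 0.0608). The call of Ighm was lost in 11 of 12 fits that left out an array.

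Ccr9, a chemokine receptor of thymus-seeding progenitors, was read by an _x_at set, with 6.54, 5.62, 6.67 and 6.10 in GFP4, against 8.27, 8.25 and 9.30 in GFP1 (-2.37 ± 0.29, SE, limma adjusted p = 0.00423), and passed in all 28 alternatives. Its GFP4 values were all below the median of the table. The other 4 probe sets of Ccr9 did not pass, with differences from -0.25 to 0.04. Il7r, the interleukin 7 receptor, fell by 1.87 ± 0.39 (SE, limma adjusted p = 0.0489), a call lost in 10 of 12 fits that left out an array. Flt3, the receptor that marks multipotent progenitors, had 10.75 ± 0.50 (SD, n = 4) in GFP4, against 11.19 ± 0.44 (SD, n = 3) in GFP1 and did not pass (adjusted p = 0.559). Cd34 had a difference of -0.99 (adjusted p = 0.191). Without GFP1 replicate 1, with the covariates, or without both arrays numbered 1, 1 member of the list was lower.

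Myeloid progenitor genes had large differences and no call. None of 16 passed, at a median of -1.26 with 15 below 0. Mpo, the myeloperoxidase of granule precursors, had 7.88, 13.29, 9.67 and 9.12 in GFP4, against 13.99, 14.06 and 11.37 in GFP1 (-3.15, adjusted p = 0.262). The groups overlapped, since GFP4 replicate 2 was above GFP1 replicate 3. Without GFP4 replicate 2, 4 of the 16 were lower.

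Of 13 erythroid genes (median -0.54) and 18 megakaryocyte and platelet genes (median -0.04) none passed. Gata1, their shared transcription factor, had a difference of -1.17 at an adjusted p of 0.0664. The erythroid median was -0.13 without GFP1 replicate 1.

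The 12 largest falls under the rule were those of Bex6 (-4.28), Ighm (-3.75), Cd48 (-3.43), Pdgfrb (-3.01), S1pr3 (-2.85), Lrr1 (-2.71), Cd300lb (-2.70), Tespa1 (-2.50), Clec4d (-2.50), Ncf1 (-2.42), Tmprss3 (-2.37) and Tk1 (-2.32). S1pr3 is a receptor for sphingosine 1-phosphate, Clec4d a lectin receptor of myeloid cells, Ncf1 a subunit of the phagocyte oxidase and Tespa1 a protein of T cell development. S1pr3 had 5.99, 8.02, 6.20 and 7.16 in GFP4, against 10.01, 9.64 and 9.43 in GFP1 (-2.85 ± 0.40, SE, limma adjusted p = 0.00867). The call was lost without GFP1 replicate 1, and the other 2 probe sets of S1pr3 did not pass, with differences of -0.04 and 0.36. The other probe sets of Pdgfrb (-0.30), Ncf1 (-0.99 and -0.63) and Lrr1 (-1.58 and -0.31) did not pass either. Bex6 spread from 4.53 to 8.70 in GFP4, against 10.99 to 11.78 in GFP1. With arrays left out in turn, Ncf1 lost its call in 9 of 12 fits, Tespa1 in 6 and Cd48 and Cd300lb in 4 each, all of these without GFP1 replicate 1 among others. Bex6, Lrr1 and Clec4d lost theirs in 2 each, and Pdgfrb in 1, while Tmprss3 and Tk1 passed in all 12.

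The Bex family did not move as one. Bex1 and Bex4, relatives of Bex6 on the X chromosome, rose by 1.08 ± 0.22 (SE, limma adjusted p = 0.0435) and 1.40 ± 0.19 (SE, limma adjusted p = 0.00867), and were named after their values were seen.

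Genes of other cell types, in case the gate let some through, were read in the same way. Of 18 genes of neutrophils, monocytes and macrophages, Clec4d was lower and 17 did not pass, with a median of -0.73 that was -0.04 without GFP1 replicate 1. The mean over that list lay between 7.26 and 9.13 in GFP4 and between 7.53 and 10.1 in GFP1. Of 13 B and plasma cell genes Ighm was lower and 12 did not pass. Their mean lay between 7.18 and 7.79 in GFP4 and between 8.13 and 8.37 in GFP1. Differences were below 0 for 8 of the 13, of which 3 had groups that did not overlap, and above 0 for the other 5, of which 1 had such groups. Over all genes 4.48% had such groups lower in GFP4 and 5.48% higher. Pax5 and Ms4a1, which define B cells, were among the 5, at differences of 0.25 and 0.08 that did not pass. Outside the list, Igkv8-30, an immunoglobulin light chain segment picked after its values were seen, was lower (-3.70 ± 0.72, SE, limma adjusted p = 0.0345). It was read by an _x_at set, with means of 7.70 in GFP4 and 11.40 in GFP1.

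None passed of 10 mast cell and basophil genes (median -0.71, and -0.19 without GFP1 replicate 1), of 11 T and NK cell genes, of 12 dendritic cell genes or of 16 endothelial and stromal genes. The part of such cells in the falls of Ighm, Igkv8-30, Clec4d and the progenitor genes was not tested.

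The remaining lists showed few calls. None of 23 niche receptors and adhesion molecules, 25 TGF-beta and BMP pathway genes, 23 chromatin and DNA methylation enzymes, 22 immediate early and heat shock genes or 18 glycolysis and hypoxia genes passed, and their medians lay between -0.12 and 0.26. Egr1, an immediate early factor known to keep HSCs quiescent, had 11.07, 7.63, 9.43 and 8.53 in GFP4 and 7.22, 8.75 and 7.24 in GFP1 (adjusted p = 0.413). Of 20 cytokine receptors Il7r was lower, and Kit, at 9.15 ± 0.34 (SD, n = 4) in GFP4, against 8.58 ± 0.69 (SD, n = 3) in GFP1, did not pass (adjusted p = 0.513).

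Among 17 p53 targets, sestrins and Foxo factors Cdkn1a alone passed, downwards. Ndufa9, a subunit of complex I, was the member of 19 oxidative phosphorylation genes to pass (-1.11 ± 0.21, SE). Ribosome biogenesis and Myc genes had a median of -0.44 over 20 members, with Nolc1, a nucleolar protein, lower (-1.38 ± 0.29, SE) and Mycn higher. The median was -0.23 without GFP1 replicate 1, and none of the 20 passed there or with the covariates.

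Levels between the 2 ends were read for the called genes. Of the 82 genes higher in GFP4, the GFP2 mean was between the GFP1 and GFP4 means in 76 (92.7%) and the GFP3 mean in 77 (93.9%), against 33.8% and 37.1% of all genes with a difference above 0. Of the 116 lower genes it was between them in 95 (81.9%) for GFP2 and 105 (90.5%) for GFP3, against 35.8% and 39.5% of all genes with a difference below 0. All 4 levels stood in order for 68 of the 82 (82.9%) and 74 of the 116 (63.8%), against 12.8% and 13.9% of all genes. A large gap between the ends makes a place in between more likely, so these shares describe the called genes and do not test them.

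Rises were spread over the levels, with median steps of 0.59, 0.64 and 0.46 up to GFP2, GFP3 and GFP4. For falls the median steps were -0.33, -0.44 and -0.72. These genes were called on GFP4 against GFP1, which widens the steps that touch those groups, and the sizes of the steps were not tested. Mllt3 averaged 7.98, 9.32, 10.06 and 10.69 from GFP1 to GFP4, and Meg3 8.62, 9.26, 11.00 and 12.64. Cdt1 stayed high up to GFP3, with 11.09, 11.01, 10.81 and 9.13 over the same levels, and Cdk6 had 12.03, 11.95, 11.47 and 10.48. Cd48 and Il7r were already low at GFP3, with 10.12, 9.50, 6.93 and 6.68 for Cd48 and 9.05, 7.32, 6.34 and 7.17 for Il7r.

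Against GFP2 28 genes passed in limma (0.154%), 8 higher in GFP4 (0.044%) and 20 lower (0.11%). They included Cdt1 (-1.87, adjusted p = 0.0219), Cdk6 (-1.46, adjusted p = 0.0219), Tk1 (-2.32, adjusted p = 0.0219), Meg3 (3.38, adjusted p = 0.0219), Gbp8 (2.20, adjusted p = 0.0219) and Ndn (1.60, adjusted p = 0.045). This comparison and the one with GFP1 share the GFP4 arrays. No gene passed for GFP2 against GFP1 (490 at an unadjusted p under 0.05, or 2.69%), GFP3 against GFP1 (855, or 4.7%) or GFP4 against GFP3 (925, or 5.08%).

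GFP0 cells lay beyond GFP1, away from GFP4, in 56 of the 82 rises (68.3%) and 24 of the 116 falls (20.7%), against 31% and 34.3% of all genes with a difference of that sign. The GFP1 arrays were used to make the calls, which favours values of GFP0 nearer to GFP4, and the difference between rises and falls was not tested. Meg3 was lower still in GFP0, at 6.68 ± 0.60 (SD, n = 2), and Hnrnpll, a splicing regulator of lymphocytes among the 29 genes above, was at 10.31 ± 0.65 (SD, n = 2) in GFP0, close to 10.27 ± 0.23 (SD, n = 3) in GFP1. Ighm was brightest in GFP1, at 14.40 ± 0.25 (SD, n = 3), with 13.03 in GFP0 and 12.48 in GFP2.

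**Figure D4:**
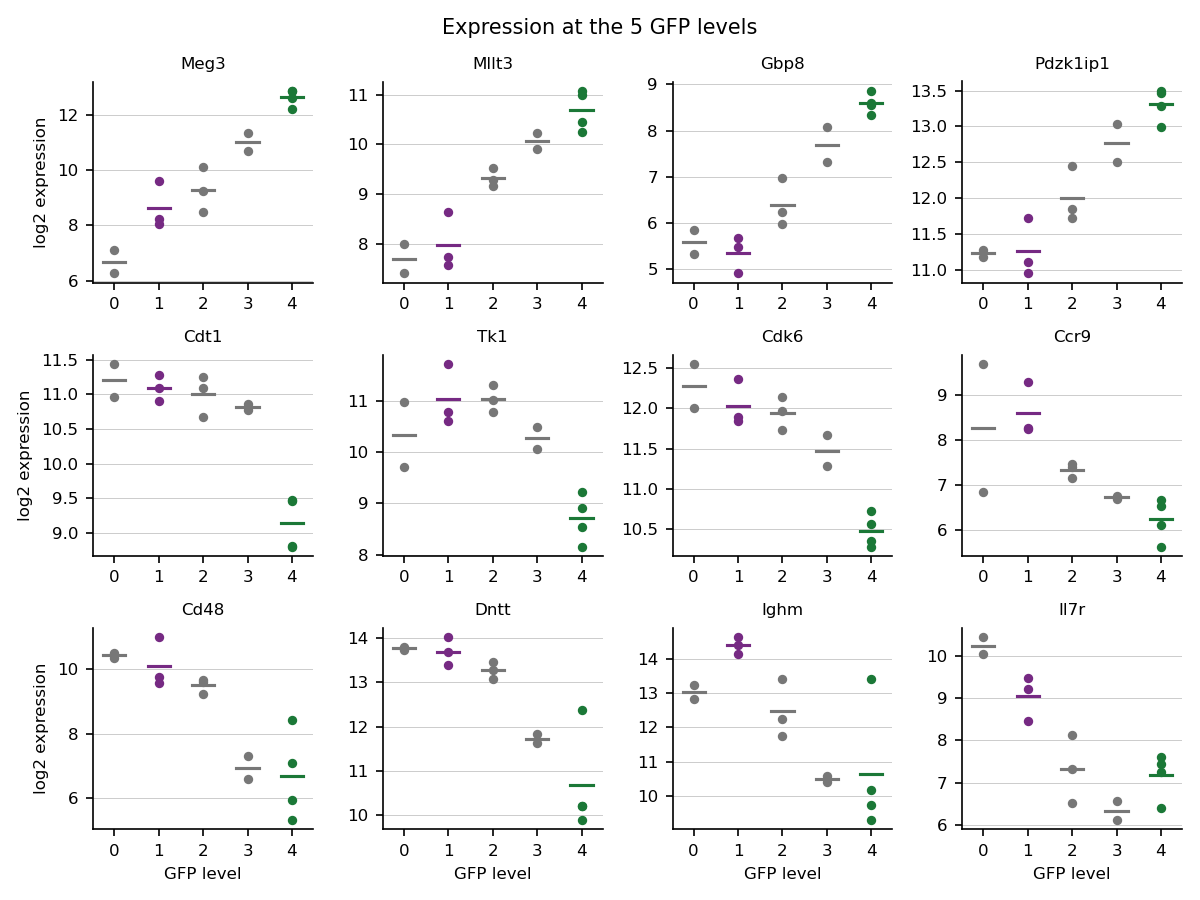
Log2 expression of 12 genes on every array at the 5 GFP levels, from GFP0 to GFP4, with bars at the means (GFP1 purple, GFP4 green, other levels grey; 2, 3, 3, 2 and 4 arrays). Meg3, Mllt3, Gbp8 and Pdzk1ip1 climbed over several levels, Cdt1, Tk1 and Cdk6 were lowest at GFP4, and Cd48, Ighm and Il7r were about as low at GFP3 as at GFP4 or lower, while Dntt had its lowest mean at GFP4.

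**Figure D5:**
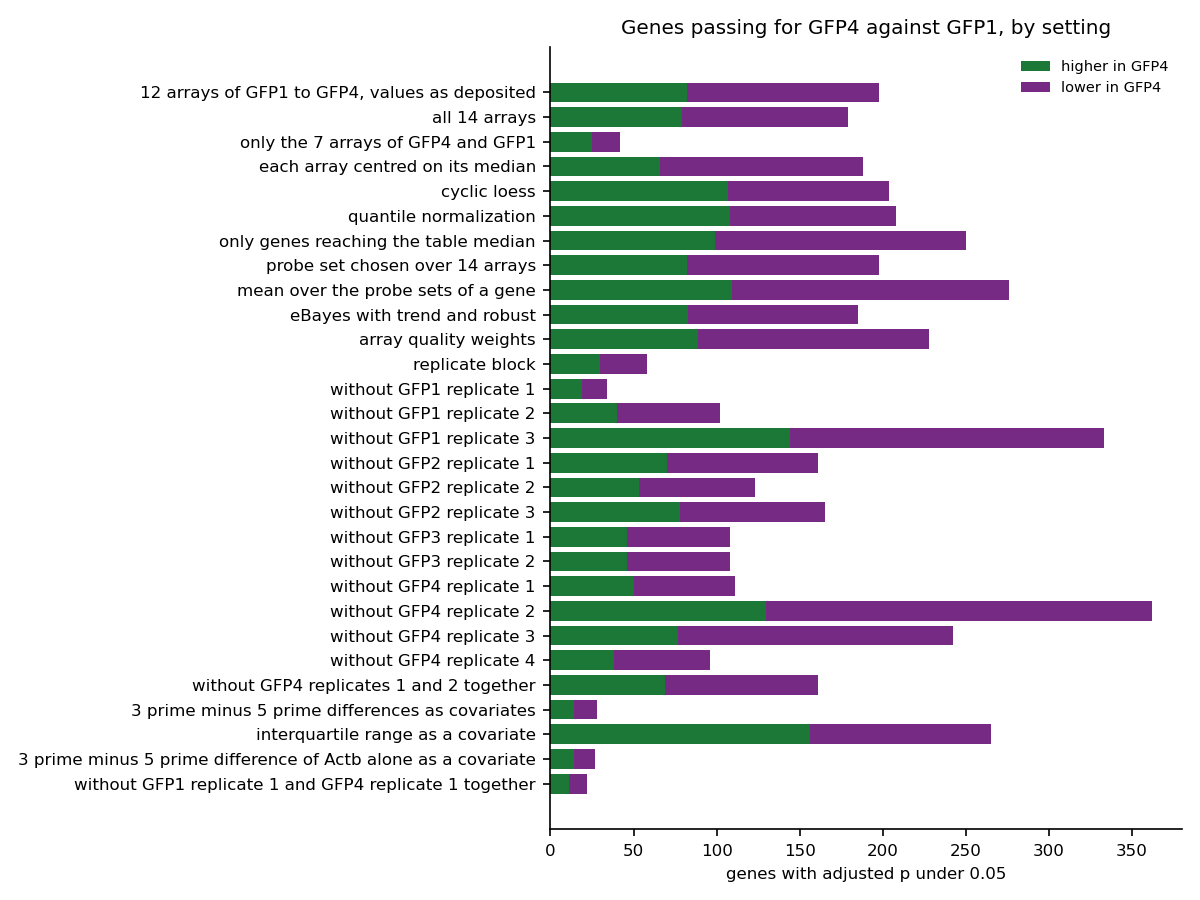
Number of genes that passed for GFP4 against GFP1 in each setting, stacked as higher (green) and lower (purple) in GFP4. The counts run from 22 without both arrays numbered 1 to 362 without GFP4 replicate 2, against 198 as reported.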

How the data were processed

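The authors' deposited values are log2 probe-set expression from Affymetrix arrays, made with GCOS, RMA and affy (no versions given), per the submitters' processing notes. RMA subtracts background, normalizes quantiles and summarizes probes. The deposited arrays still differed: over the 7 GFP4 and GFP1 arrays medians ran from 6.96 to 7.17. Interquartile ranges ran from 2.21 (GFP4 replicate 1) to 2.57 (GFP1 replicate 3). Of 45101 probe sets, 34958 named exactly 1 gene in the platform annotation, 932 several and 9211 none, and 34754 of the 34958 matched RefSeq (GRCm38.p6) by gene identifier. A gene was read by its brightest such probe set over the 7 GFP4 and GFP1 arrays, which gave 18194 genes, dim ones included.

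The 12 arrays of GFP1 to GFP4 entered 1 fit of group means (limma 3.58.1, R 4.3.3), because 7 arrays give few degrees of freedom. GFP4 minus GFP1 was tested two-sided, with moderated variances (8 residual degrees of freedom, 3.59 prior). P-values were adjusted by Benjamini and Hochberg's method over the 18194 genes. SE is limma's moderated standard error of a difference, and SD is over arrays. The share of false calls among the 198 genes is not known, nor is the share of changes that the fit missed.

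The members and the 33 gene lists were chosen with earlier results of these data known. Named genes were the 12 largest differences each way among genes that passed, whose groups did not overlap, whose brighter mean was at least the table's median, and which were not read by an _x_at probe set (nor by an _s_at set that several symbols share), up to 5 members of each list by p, and genes fixed by name. Members counted in a list but outside this rule are named with their differences alone. Replicate numbers were taken not to pair the arrays: same-numbered arrays correlated at -0.19, -0.14 and 0.04 in their deviations from the group means. Alternatives were other normalizations, a filter on dim genes, other ways to read a gene, other variance models, array weights, other sets of arrays, covariates and leaving out each array. Promoter words were searched in RefSeq windows. Figures were drawn with matplotlib 3.10.9.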

Additional observations from a re-analysis of the deposited data

Results flagged for a closer look

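With 4 arrays in GFP4, 1 array can stand apart from the other 3. The gap to the nearest of them, as a share of the group's whole range, was compared with Dixon's critical value for 175 named genes, and 13 genes exceeded it. Chance alone exceeds it in about 1 of 20 groups.

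GFP4 replicate 2 was the array apart for 5 genes. It was high for genes of progenitors and other cells: Dntt at 12.38 against 9.90 to 10.22 in the other GFP4 arrays (share 0.869), Csf1r, the receptor of macrophage colony-stimulating factor, at 11.45 against 8.54 to 8.90 (0.878) and Cpa3, a mast cell carboxypeptidase, at 9.77 against 6.38 to 6.67 (0.915). It was also high for Clec1a, at 10.75 against 9.52 to 9.61 (0.929), and low for Foxo3, a factor that maintains HSCs, at 9.60 against 10.20 to 10.23 (0.952). Without this array the genes that passed numbered 362, and what set it apart was not tested.

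GFP4 replicate 1 stood apart for 5 genes. Nkx2-3, a homeobox factor, was high at 9.40 against 8.71 to 8.76 (0.916), and so was Cd22 of B cells at 8.02 against 7.12 to 7.15 (0.960). Car2, a carbonic anhydrase, was low at 12.55 against 12.96 to 13.00 (0.909), as were Gnas at 10.60 against 11.23 to 11.32 (0.876) and Ldha, the lactate dehydrogenase, at 10.56 against 11.10 to 11.19 (0.857). For the 3 remaining genes, replicate 4 was high for Mmrn1 at 11.62 against 10.98 to 11.03 (0.922), and replicate 3 was low for Ltbp3, which binds latent TGF-beta, at 11.68 against 12.19 to 12.27 (0.862) and high for the nucleolar Nop2 at 8.76 against 8.37 to 8.42 (0.867). Of the 13 genes, Mmrn1, Clec1a and Dntt passed for GFP4 against GFP1.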

How the results depend on the processing

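With 198 genes (82 higher and 116 lower), leaving out 1 array gave 34 to 362 genes, 19 to 144 higher and 15 to 232 lower. The 7 arrays alone gave 42 (25 and 17). The covariates of RNA length (Actb and Gapdh) left 28 (14 and 14). With that of Actb alone there were 27 (14 and 13), and without both arrays numbered 1 there were 22 (11 and 11), both chosen after seeing the data. With the interquartile range as a covariate, 265 passed (156 higher and 109 lower). Cyclic loess gave 204 (107 and 97) and quantile normalization 208 (108 and 100), so that higher genes became the larger share. Other counts lay within 1.5 times of 198, from 161 without GFP4 replicates 1 and 2 to 276 with the mean over probe sets. The cause of these shifts was not tested. The replicate number as a block, which the check of pairing did not bear out, gave 58 genes (30 and 28). With each probe set tested by itself, the sets read for Ighm, Il7r, Gimap5, Cdkn1a, Fanca, Blm, Nolc1, Nusap1 and Zfp612 did not pass. Below about 7 on the log2 scale no detection calls bound the signal, so large differences of dim genes rest on values that may be background.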
